A study of Mus musculus with 65 samples.

Results

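The Werner helicase and telomere genes measured here were Wrn, Terf1 and Tnks, found as every feature that the platform annotation names for one of them. Each gene had 1 feature, so 3 of the 8448 features of the array were described, each in all 65 mice. Spinal cords of C57BL/6 mice were profiled on filter B of the NIA mouse array, in which cDNA clones are spotted on nylon, using a separate filter per animal. Of these mice 40 ate ad libitum (AL), namely juveniles (17 to 44 days old) and adults of 6 months (6M, 169 to 194 days), 16 months (16M, 476 to 499 days) and 24 months (24M, 704 to 743 days), each set holding 5 males and 5 females. The 25 mice on caloric restriction (CR) received a ration of fortified feed that was lowered in steps from young adulthood, and there were no CR juveniles. They were 8 mice of 6M (3 males and 5 females, 174 to 194 days), 10 of 16M (5 of each sex, 472 to 499 days) and 7 of 24M (3 males and 4 females, 673 to 743 days). All 3 CR males of 24M were 673 days old, below the AL range of 704 to 743 days. In males of 24M the effects of diet and of age thus cannot be told apart. No group carried a transgene or a drug.

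Wrn encodes the RecQ helicase and exonuclease that is lost in Werner syndrome, a human disease of premature aging, and its protein unwinds unusual DNA structures during repair, replication and the copying of telomeres. Terf1 encodes TRF1, a shelterin protein that binds the double-stranded telomere repeat and restrains its lengthening by telomerase. Tnks encodes tankyrase 1, a poly(ADP-ribose) polymerase that in human cells modifies TRF1 and releases it from telomeres. Whether this holds in mice was not tested here. The WRN protein also works with other repair proteins, among them the Ku heterodimer and PARP1, and these partners were looked up on the same arrays. The study drew attention to Wrn and to telomere proteins on the basis of arrays that include these, so the patterns here are not independent evidence for that choice.

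All values are Z scores within an array, scaled so that 1 unit is the SD over the features of an array and their mean is at 0. A difference is given in the same units, and a level of 1 feature cannot be set against that of another. Wrn scored 0.199 ± 0.114 (SD, n = 65), Terf1 1.42 ± 0.171 and Tnks -0.711 ± 0.115. The residual SD within groups was 0.108 for Wrn, 0.171 for Terf1 and 0.116 for Tnks, and that of the median feature was 0.149.

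Spread of 3 kinds was found beyond the groups. The arrays numbered 31, 32 and 33, which hold 6M CR male replicate 2, 6M CR female replicate 3 and 6M AL male replicate 3, stood apart from the rest. Their Wrn scores were 0.09, -0.18 and -0.09, their Terf1 scores 1.62, 1.89 and 2.40, and their Tnks scores -0.54, -1.28 and -1.15. Among the other 62 arrays Terf1 lay between 1.12 and 1.67 and Tnks between -0.86 and -0.56, so that arrays 32 and 33 were outside the range of the rest for both genes. The other 62 arrays fell into 2 runs along the first principal component of all features (36.0% of the variance), with 41 arrays in run 1 and 21 in run 2. The runs are not named in the labels. With the groups in the fit, 45.8% of the features differed between the runs. Tnks was one of them, at 0.0733 lower in run 2 (limma, SE 0.0182, adjusted p = 0.000721, a difference of -0.0733), whereas Wrn (-0.0180, adjusted p = 0.593) and Terf1 (-0.0474, adjusted p = 0.165) did not pass. The third kind of spread, shared by features with nearby numbers, is described after the comparisons.

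The tissue was checked against marker genes. Of 14 neuronal symbols, 3 had a named feature, and the 2 features of Nefl (neurofilament light chain) scored 1.07 and 0.896 on average. Uchl1 scored 0.533, while Slc17a6 lay below the array mean at -0.292. Of 10 oligodendrocyte and myelin symbols, Gsn alone was named (mean score 0.258), and features named Mbp or Gfap were not among those used here. The array therefore says little about the cell types behind each value, and in bulk tissue fewer cells of a type and less RNA per cell cannot be told apart.

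**Figure D1:**
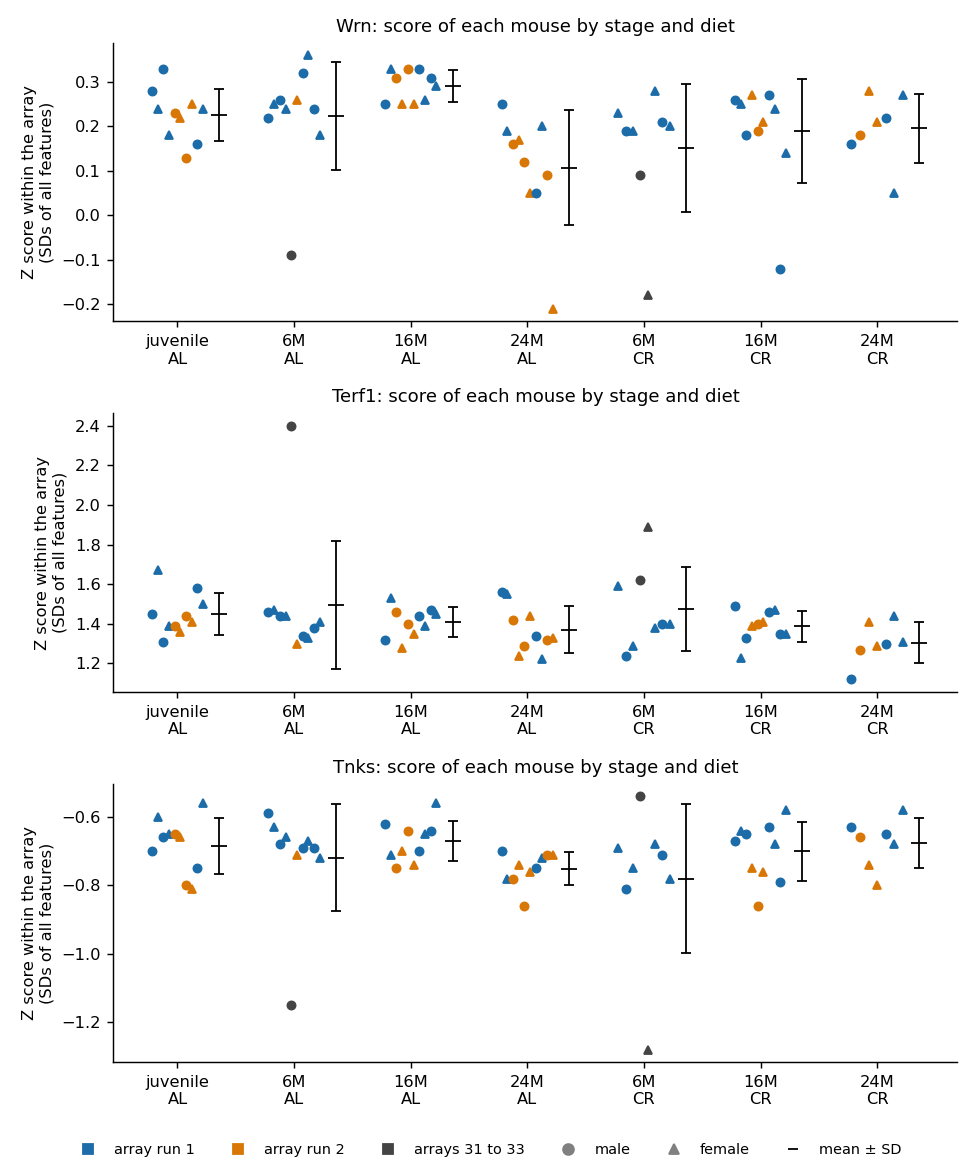
Each point is 1 mouse (circle, male; triangle, female), its Z score on the vertical axis and its stage and diet on the horizontal axis, with colours for the array runs and black bars for mean ± SD. Wrn at 24M AL lies mostly below the 16M AL mice, and arrays 31 to 33 give the values farthest from the rest at 6M.

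Wrn was highest in 16M AL mice and lowest in 24M AL mice. The 10 AL mice of 16M scored 0.291 ± 0.0354, with a lowest value of 0.25, a median of 0.300 and a highest of 0.33. The 10 AL mice of 24M scored 0.107 ± 0.129, with a lowest value of -0.21, a median of 0.140 and a highest of 0.25. Of the 10 older mice, 9 were below every 16M AL mouse, and the remaining one, male replicate 1 at 0.25, was level with the lowest of them. Both sexes lay on the same side. Males scored 0.306 ± 0.0329 at 16M and 0.134 ± 0.0764 at 24M (n = 5 each), and females 0.276 ± 0.0344 and 0.0800 ± 0.173.

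The difference from 16M to 24M in AL mice was -0.184 (SE 0.0493, 95% interval -0.283 to -0.0852). It had the smallest p of all 8448 features, but its adjusted p was 0.959. An exact permutation of the age labels within each sex gave p = 6.3e-05, two-sided and unadjusted, as 1 of 30 such tests of the 3 genes in 10 comparisons. These permutation tests were chosen after seeing the data and exchanged labels across the runs. They were made for the 3 genes only, so no share over all features stands beside them. In the age step of AL mice 0% of all features passed the adjusted threshold of 0.05, and 1.99% had an unadjusted p under 0.05. Of the 3 genes Wrn alone was among the latter in this fit. Its residual spread includes arrays 31 to 33, which hold 6M mice only, and without them the second share was 7.66%. Within the runs the Wrn difference was -0.123 in run 1 (4 mice of 24M against 6 of 16M) and -0.222 in run 2 (6 against 4). Without the mouse at -0.21, 24M AL female replicate 5, it was -0.148 (SE 0.0470). The age step did not differ detectably between the sexes (males minus females 0.0240, 95% interval -0.174 to 0.222, adjusted p = 1.00, with 0% of features passing).

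Under the selection that the study describes (a mean score above 0, a difference of at least 1.5 SDs of all differences and an unadjusted p under 0.05), 0.852% of the features were selected in this comparison. Wrn was one of them, and its difference divided by that SD (the z-ratio) was -2.07. When each array was weighted by its quality in limma, the Wrn difference was -0.170 and its adjusted p 0.0393, with 42 of the 8448 features passing, but the estimation of the weights stopped before it converged. Without arrays 31 to 33 the difference stayed at -0.184 with a smaller SE of 0.0394, and the adjusted p was 0.186.

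In CR mice no such step was measured for Wrn. The 10 CR mice of 16M scored 0.189 ± 0.117, from -0.12 through a median of 0.225 to 0.27, and the 7 CR mice of 24M scored 0.196 ± 0.0776, from 0.05 through 0.210 to 0.28. The difference was 0.00558 (95% interval -0.104 to 0.115, adjusted p = 0.982), in a comparison in which 0% of features passed. Within the runs it was 0.000714 in run 1 (4 mice of 24M against 7 of 16M) and 0 in run 2 (3 against 3). The step in CR mice minus the step in AL mice was 0.190 (SE 0.0736, 95% interval 0.0421 to 0.337), and its adjusted p was 1.00. For that difference of steps 0% of features passed the adjusted threshold and 3.82% had an unadjusted p under 0.05, Wrn alone among the 3 genes. A different step in the 2 diets was thus not shown at the threshold used.

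**Figure D2:**
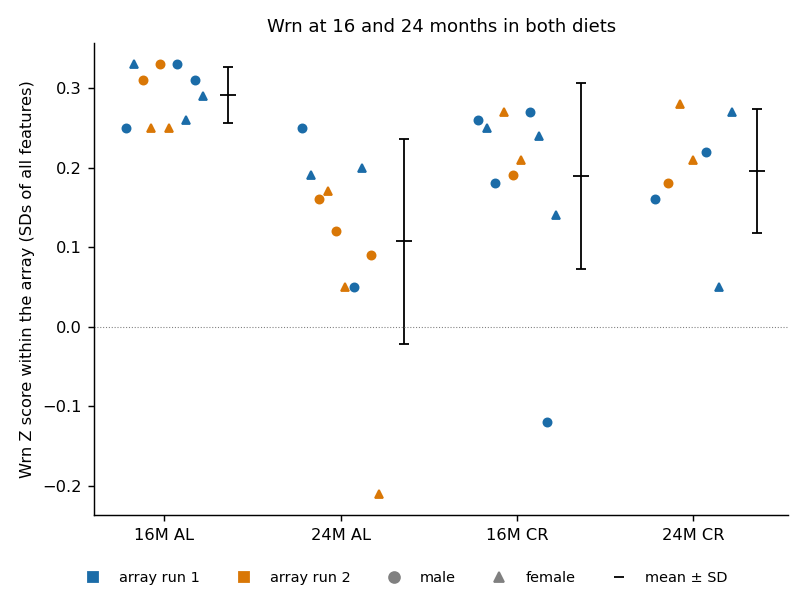
Each point is the Wrn Z score of 1 mouse at 16M or 24M in each diet (circle, male; triangle, female; colour, array run), with mean ± SD in black. The AL mice of 24M reach from -0.21 to 0.25 and those of 16M from 0.25 to 0.33, while the CR mice of both ages overlap over most of their range.

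Diet was compared at each age. At 16M, Wrn in CR mice was 0.102 below AL mice, a difference of -0.102 (SE 0.0493, 95% interval -0.201 to -0.00324, adjusted p = 1.00). All 10 CR mice were below the AL mean, and 6 of them below the lowest AL mouse. The exact permutation p was 0.0017, unadjusted. Here 0% of features passed the adjusted threshold, 0.746% had an unadjusted p under 0.05 and 0.982% met the study's selection. Wrn was in both of the last 2 sets, and Terf1 and Tnks in neither. The difference was -0.121 within run 1 (7 CR against 6 AL mice) and -0.0617 within run 2 (3 against 4). Without 16M CR male replicate 5, which scored -0.12, it was -0.0675 (SE 0.0474). The same 16M AL mice enter the age step in AL mice, so the 2 comparisons are not separate support.

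At 24M, where the CR males were younger than the AL mice (673 days against 704 to 743), the direction was the other way. CR mice were 0.0876 above AL mice in Wrn (SE 0.0546, 95% interval -0.0219 to 0.197, adjusted p = 0.645), with 6 of 7 CR mice above the AL mean and 2 above the highest AL mouse. The exact permutation p was 0.118. This difference was 0.00250 within run 1 (4 mice each) and 0.160 within run 2 (3 CR against 6 AL mice), and it was 0.0513 without 24M AL female replicate 5. At 6M, CR mice were 0.0703 below AL mice, a difference of -0.0703 (95% interval -0.177 to 0.0363, adjusted p = 0.757), and the 6M means without arrays 31 to 33 were 0.259 ± 0.0530 in AL (n = 9) and 0.217 ± 0.0344 in CR (n = 6). The share of features past the adjusted threshold was 0.0237% at 6M and 0% at 24M. At 24M 7.42% had an unadjusted p under 0.05, none of the 3 genes among them.

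The earlier ages added little for Wrn. Juveniles scored 0.226 ± 0.0582 and 6M AL mice 0.224 ± 0.121, a difference of -0.00200 (95% interval -0.101 to 0.0968), where 0.13% of features passed. The 5 juveniles of 17 to 21 days scored 0.20 ± 0.0453 and the 5 of 33 to 44 days 0.252 ± 0.0622. From 6M to 16M in AL mice the Wrn difference was 0.0670 (95% interval -0.0318 to 0.166, adjusted p = 0.526), where 0.0237% of features passed. It came to 0.0320 without 6M AL male replicate 3 (array 33) and to -0.00638 after centring on neighbouring features. From 6M to 24M the Wrn difference was -0.117 (SE 0.0493, adjusted p = 0.351). One of 4 microglial features, that of the complement gene C1qa, rose in the same comparison (0.286, SE 0.0619, adjusted p = 0.0414), its part in the Wrn value not tested. In that comparison 0.071% of features passed, while an unadjusted p under 0.05 was common, at 12.8% of features, and Wrn was the only one of the 3 genes with it. Age and run were unevenly mixed there, with 8 arrays of 6M AL in run 1 and 1 in run 2, against 4 and 6 at 24M. Without arrays 31 to 33 the share was 18.1%, and with the run as covariate as well it was 3.88%. Wrn gave -0.143 (SE 0.0426, adjusted p = 0.849) in the latter fit. With array weights the 6M to 24M difference of Wrn was -0.141 (adjusted p = 0.00740), in the same fit without convergence, which called 1829 features. In CR mice the differences of Wrn were 0.0353 from 6M to 16M, where 0% of features passed, and 0.0409 from 6M to 24M, where 0.0237% passed, and both had the opposite sign without arrays 31 to 33 (-0.0235 and -0.0179).

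In order of the mean, Wrn ran from 16M AL (0.291) through juvenile AL (0.226), 6M AL (0.224), 24M CR (0.196), 16M CR (0.189) and 6M CR (0.151) to 24M AL (0.107). Every pair of neighbours in that order overlapped in the range of single mice.

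Terf1, the shelterin gene, varied little among groups once arrays 31 to 33 were set aside. Its means were 1.45 ± 0.108 in juveniles, 1.5 ± 0.323 at 6M AL, 1.41 ± 0.0761 at 16M AL and 1.37 ± 0.119 at 24M AL. In CR mice they were 1.48 ± 0.213 at 6M, 1.39 ± 0.0776 at 16M and 1.31 ± 0.104 at 24M. The high 6M means rest on 3 mice, since without arrays 31 to 33 they were 1.40 ± 0.0618 in AL (n = 9) and 1.38 ± 0.120 in CR (n = 6).

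The 24M CR mice had the lowest mean of Terf1, with values of 1.12, 1.27 and 1.30 in males (all 673 days old) and 1.41, 1.29, 1.44 and 1.31 in females. The 16M CR mice ran from 1.23 to 1.49, so the groups overlapped. In CR males the mean was 1.406 ± 0.0688 at 16M (n = 5) and 1.23 ± 0.0964 at 24M (n = 3). In CR females it was 1.37 ± 0.0894 (n = 5) and 1.3625 ± 0.0737 (n = 4), so the lower mean at 24M lay mainly in the males. The sexes were not tested apart. The difference from 16M to 24M in CR mice was -0.0918 (95% interval -0.260 to 0.0761, adjusted p = 0.856, exact permutation p = 0.0614), and it was -0.0904 within run 1 (4 mice of 24M against 7 of 16M) and -0.0767 within run 2 (3 against 3). In AL mice the same step was -0.0380 (95% interval -0.189 to 0.113, adjusted p = 0.965). From 6M to 24M the differences were -0.126 in AL (adjusted p = 0.457) and -0.169 in CR mice (adjusted p = 0.593). Without arrays 31 to 33 these came to -0.0265 and -0.0713. CR minus AL was -0.0320 at 6M, -0.0210 at 16M and -0.0748 at 24M, and every 95% interval included 0.

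Tnks, the tankyrase gene, lay below the array mean in every mouse. Its AL means were -0.684 ± 0.0815 in juveniles, -0.719 ± 0.156 at 6M, -0.671 ± 0.0592 at 16M and -0.751 ± 0.0479 at 24M. The CR means were -0.780 ± 0.218 at 6M, -0.701 ± 0.0860 at 16M and -0.677 ± 0.0727 at 24M. Without arrays 31 to 33 the 6M means were -0.671 ± 0.0404 in AL (n = 9) and -0.737 ± 0.0520 in CR (n = 6).

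From 16M to 24M in AL mice the Tnks difference had the sign of that of Wrn, at -0.0800 (SE 0.0526, 95% interval -0.185 to 0.0254, adjusted p = 0.959). The 16M mice ran from -0.75 through a median of -0.675 to -0.56, and the 24M mice from -0.86 through -0.745 to -0.70. All 10 older mice were below the 16M mean, and 4 were below the lowest 16M mouse. The exact permutation p was 0.0043, unadjusted. The difference was -0.0908 within run 1 (4 mice of 24M against 6 of 16M) and -0.0525 within run 2 (6 against 4). Without arrays 31 to 33 it stayed at -0.0800 with a smaller SE of 0.0317, and the adjusted p was 0.613. In CR mice the step was 0.0277 (95% interval -0.0892 to 0.144, adjusted p = 0.940).

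At 24M the CR mice were higher in Tnks by 0.0777 (SE 0.0583, 95% interval -0.0392 to 0.194, adjusted p = 0.708). The 7 CR mice ran from -0.80 through a median of -0.66 to -0.58, and 5 of them were above the highest AL mouse, at -0.70. The exact permutation p was 0.0217, unadjusted. The within-run differences were 0.103 in run 1 (4 mice each) and 0.0267 in run 2 (3 CR against 6 AL mice). As Tnks itself differed between the runs, a fit with the run as covariate and without arrays 31 to 33 was also made. It gave 0.0642 (SE 0.0310, adjusted p = 0.257), and 18.3% of all features had an unadjusted p under 0.05 in it. Like Wrn, Tnks shared its 24M AL mice between the age and the diet comparisons, so the 2 comparisons are not separate support. Here too the CR males were younger than the AL mice, and all of them were among the 5 mice above the highest AL mouse. Males of 24M scored -0.647 ± 0.0153 in CR (n = 3) and -0.760 ± 0.0644 in AL (n = 5). Females scored -0.700 ± 0.0938 in CR (n = 4) and -0.742 ± 0.0286 in AL (n = 5).

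Over the 3 adult ages together, CR minus AL was -0.0283 for Wrn, -0.0426 for Terf1 and 0.00178 for Tnks, and 0.0237% of features passed. Males minus females in adults were -0.00775, 0.0126 and 0.0111, and 0% of features passed. Of the 14 comparisons fitted, the adjusted p of Wrn, Terf1 and Tnks was above 0.05 in every one.

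**Figure D3:**
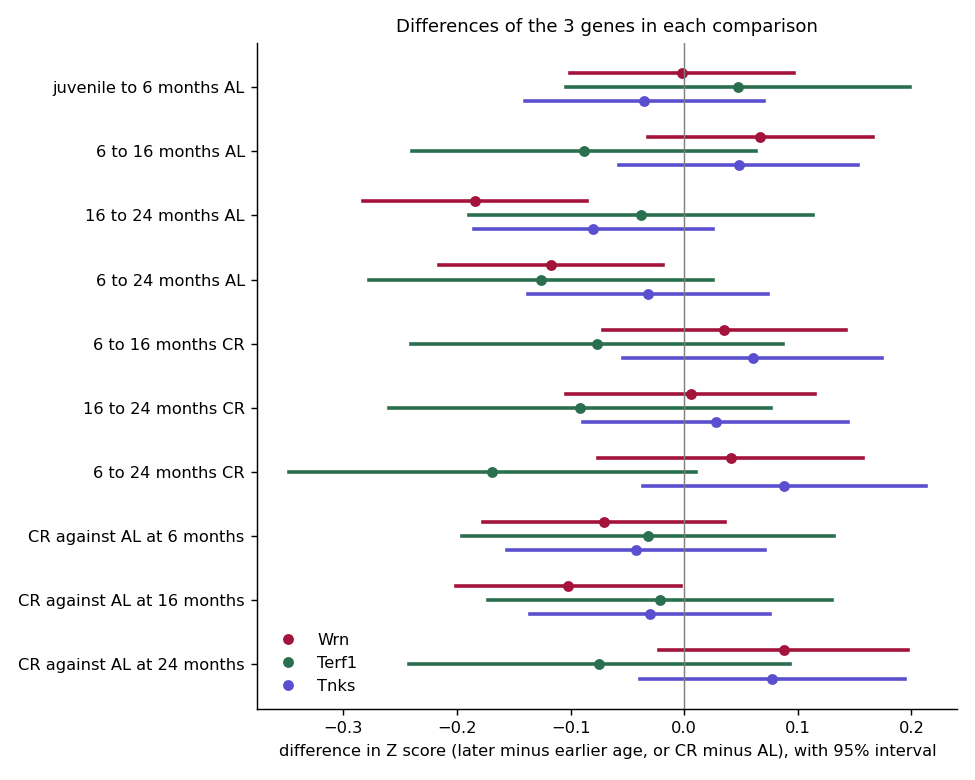
Differences in Z score of Wrn, Terf1 and Tnks (horizontal axis, points) with 95% intervals (lines) in the 10 pairwise comparisons of age and diet (vertical axis). Only the Wrn intervals from 16 to 24 months AL, from 6 to 24 months AL and for CR against AL at 16 months leave out 0, and these intervals are not adjusted for the number of features.

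Values of the 3 genes moved with those of features that have nearby numbers in the array's list. Over all 65 mice the median correlation of Wrn was 0.247 with the 20 features up to 10 numbers away, 0.236 with the next 80 and 0.0244 with the 7447 features more than 500 away. For Tnks it was 0.411, 0.387 and 0.0472. For Terf1 the nearest features gave 0.0769 over all mice, but 0.439 after arrays 31 to 33 were left out and each run was centred on its mean, against -0.0473 far away. The points share arrays and labelling, so these are descriptions without a test, and whether feature numbers follow the layout of spots on the filter was not given in the sources used here.

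The same pattern appeared among the genes most like Wrn, in part among those most like Terf1 and hardly among those most like Tnks. The 3 named features most correlated with Wrn were Fbxl7 (r = 0.762 over 65 mice), Bpgm (0.696) and Vps8 (0.674), and within the runs Fbxl7 (0.676 over 62 mice), Nol10 (0.587) and Rnaseh1 (0.575). All 5 lay at most 67 numbers from Wrn. For Terf1 they were Cryzl1 (0.930), Espl1 (0.901) and Mtmr12 (0.896), and within the runs Eef2k (0.802), Cryzl1 (0.781) and Snap23 (0.753), of which 3 of 5 lay within 100 numbers. For Tnks they were Prdm4 (0.778), Hspa12a (0.772) and Ppt1 (0.762), and within the runs Txnl4a (0.557), Yipf6 (0.512) and Krcc1 (0.486), with 1 of 6 within 100 numbers. Between the genes themselves, Wrn and Tnks correlated at 0.551 over all mice and at 0.263 within the runs, Terf1 and Tnks at -0.513 and 0.00101, and Terf1 and Wrn at -0.322 and 0.146. Over all mice a correlation above 0.5 in size was found with 8.37% of all features for Wrn, 31.4% for Terf1 and 20.8% for Tnks.

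**Figure D4:**
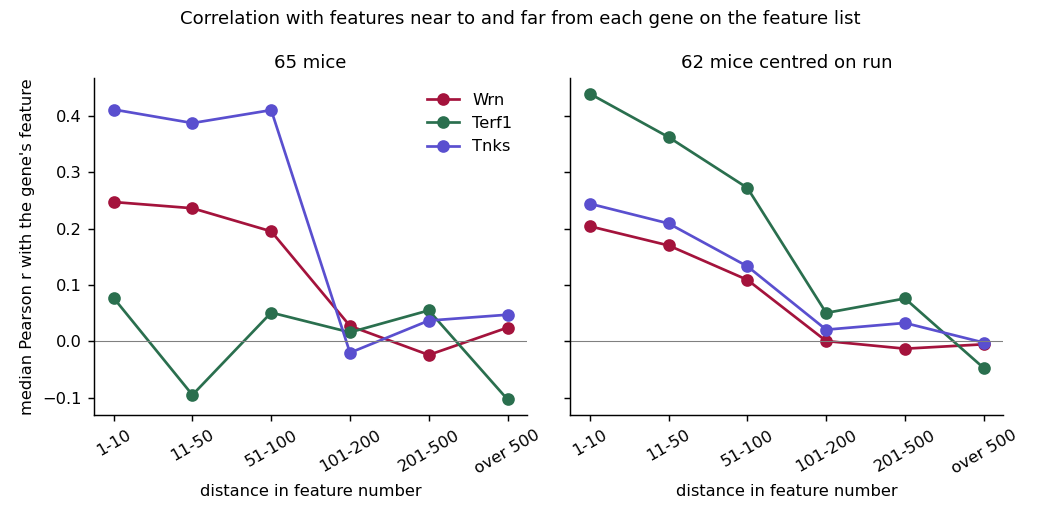
Median Pearson correlation across mice (vertical axis) between each gene's feature and the features in 6 bands of distance in feature number (horizontal axis), over all 65 mice (left) and over 62 mice centred on the run means (right). Within the runs all 3 genes correlate most with features up to 10 numbers away (0.204 for Wrn, 0.439 for Terf1 and 0.244 for Tnks), and the medians are near 0 beyond 500.

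The neighbouring features also moved in the main comparison. From 16M to 24M in AL mice the median of the 100 nearest features changed by -0.0460 around Wrn, -0.0465 around Terf1 and -0.0458 around Tnks. When that median was subtracted in every array, the Wrn difference was -0.138 (SE 0.0379, adjusted p = 1.00), the Terf1 difference 0.00848 and the Tnks difference -0.0342. For CR against AL at 24M the same subtraction left 0.0634 for Wrn and 0.0300 for Tnks. The part of nearby features in these results was otherwise not tested.

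Marker lists are given beside the age step for comparison. From 16M to 24M in AL mice the mean score of 4 microglial features went from -0.143 (-0.293 to -0.0375) to -0.0905 (-0.203 to -0.0275), that of 4 neuronal features from 0.586 (0.460 to 0.813) to 0.531 (0.373 to 0.803), and that of 4 astrocyte features from 0.155 (0.0575 to 0.230) to 0.204 (0.108 to 0.258). The 1 oligodendrocyte feature went from 0.337 (0.240 to 0.410) to 0.236 (0.0200 to 0.390). The 1 Schwann cell feature went from -1.195 to -1.283 and the 1 skeletal muscle feature from 0.250 to 0.328. The mean of 17 blood features went from 0.666 to 0.694. No feature of these lists passed in that step, and their part in the Wrn difference was not tested.

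Other genes of telomere maintenance and the partners of WRN were then examined. Of 36 symbols for telomere maintenance, 13 genes had a named feature (14 features), and of 52 symbols for Werner partners and RecQ helicases, 16 genes had one (20 features). Terf2ip, Tnks1bp1, Fen1, Xrcc5 and Blm had none among the features named here. Of both lists 0 features passed the adjusted threshold in any of the 14 comparisons with limma. Of all features at most 0.13% passed in any comparison, so a count of 0 does not set these lists apart.

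In AL mice from 16M to 24M the 14 telomere features had a median difference of -0.0405, with 4 of 14 above 0, and the median of all features was -0.00500. None had an unadjusted p under 0.05, against 1.99% of all features. The smallest p-values belonged to Hnrnpa2b1, an RNA-binding protein (-0.198, SE 0.116), Pot1a, which covers the single-stranded telomere end (-0.0900, SE 0.0539), and Ptges3, the telomerase-binding chaperone p23 (-0.0700, SE 0.0438), each with an adjusted p of 0.959. Terf2, the relative of Terf1, differed by 0.0190 (SE 0.0501), Tinf2, which bridges TRF1 and TRF2, by -0.0950 (SE 0.0650), and Tnks2, the second tankyrase, by -0.00700 (SE 0.0539).

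Among the 20 partner features the median in the same step was 0.0170, with 10 of 20 above 0, and that of all features was -0.00500. An unadjusted p under 0.05 was found for 2 of the 20, against 1.99% of all features, and both differences were above 0, namely Rpa3, a subunit of the single-strand binding protein RPA (0.153, SE 0.0632), and Brca1, a repair gene (0.601, SE 0.254). Xrcc6, the Ku70 subunit, followed (-0.0760, SE 0.0527). Each had an adjusted p of 0.959. Brca1 and Rpa3 lay far below the array mean, at -2.38 ± 0.587 and -1.07 ± 0.139 over all mice. Parp1 differed by -0.0620 (SE 0.0744). The 2 features of Wrnip1, the Werner helicase interacting protein, did not give 1 answer, at 0.201 (SE 0.218) and 0.0480 (SE 0.0708), and the first came to 0.0240 (SE 0.0555) with the run as covariate and without arrays 31 to 33.

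At 24M, CR against AL gave a telomere median of -0.00250 with 7 of 14 features above 0, and a median of 0.00158 over all features. Ptges3 (0.159, SE 0.0485) and Pot1a (0.151, SE 0.0598), each with an adjusted p of 0.634, were the 2 telomere features with an unadjusted p under 0.05, against 7.42% of all features. Terf2 came next, at 0.0922 (SE 0.0555, adjusted p = 0.636). Tnks2 differed by -0.0916 (SE 0.0598) and Tinf2 by -0.0137 (SE 0.0720). With the run as covariate and without arrays 31 to 33, Ptges3 was at 0.150 (SE 0.0451), Pot1a at 0.146 (SE 0.0431) and Xrcc6 at 0.147 (SE 0.0451). Each had an adjusted p of 0.0997. In that fit 18.3% of all features had an unadjusted p under 0.05, and 0 passed the adjusted threshold.

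The partner list had a median of 0.00350 in that comparison, with 12 of 20 features above 0. Xrcc6 (0.158, SE 0.0584) and Rmi1, a partner of the BLM helicase (0.119, SE 0.0498), were higher in CR mice, and Rpa3 (-0.143, SE 0.0701) was lower, each with an unadjusted p under 0.05 and an adjusted p of 0.634. Parp1 differed by -0.0606 (SE 0.0825). The diet comparison shares its 24M AL mice with the age step, and its CR males were younger than the AL mice. Under the study's selection, Ptges3 (1 of 14 telomere features) and Xrcc6 (1 of 20 partner features) were taken here, against 1.93% of all features. From 6M to 24M in AL mice it took Rpa2, another RPA subunit (1 of 20 partner features), against 1.89%.

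**Figure D5:**
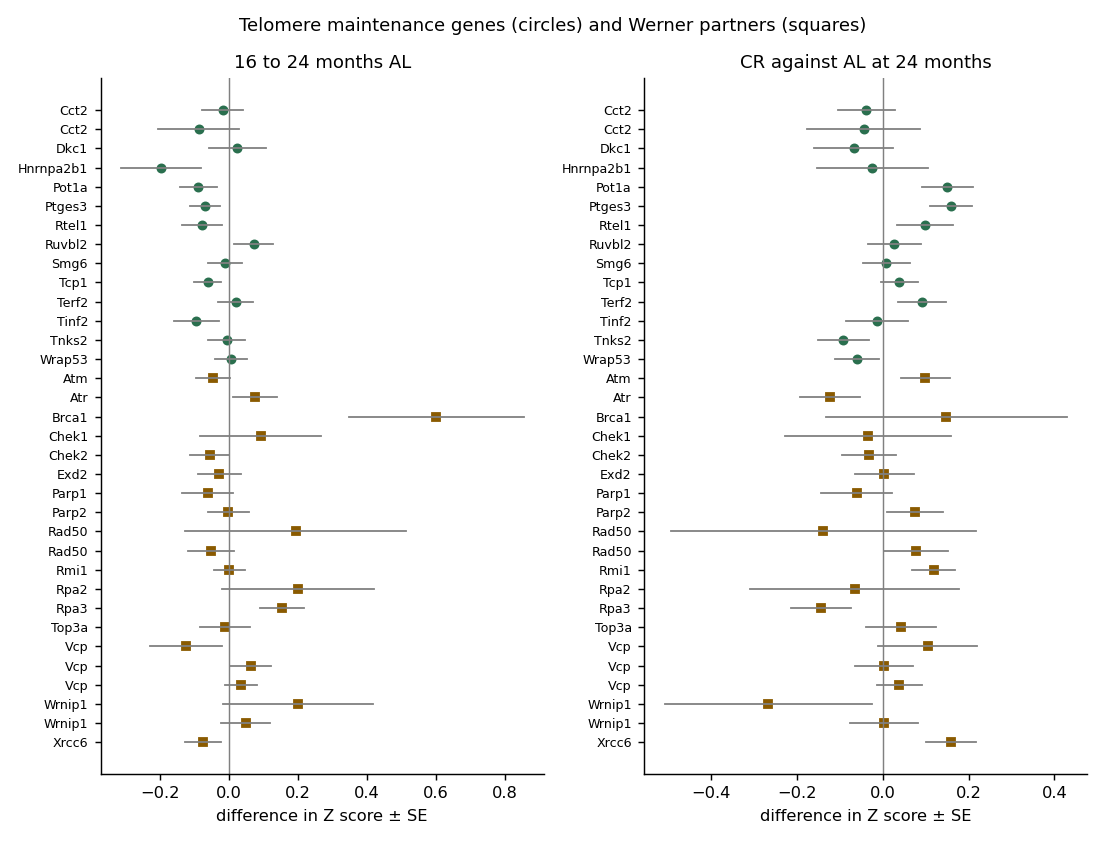
Differences in Z score ± SE (horizontal axis) of the 14 telomere maintenance features (circles) and the 20 features of Werner partners and RecQ helicases (squares) from 16 to 24 months in AL mice (left) and for CR against AL at 24 months (right). Brca1 at 0.601 on the left and Wrnip1 at -0.266 on the right lie farthest from 0, both with wide errors.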

How the data were processed

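Radiolabelled cDNA was made from the RNA of each mouse and hybridized to 1 filter. The authors took logarithms of the spot intensities, turned them into a Z score per array, and deposited these scores with 2 decimals. The log base and background treatment are not given in the sources used here, so no folds are printed. Z scores hide changes common to most features and carry no depth, so the number of arrays limits the precision. Groups came from the labels of age, sex and diet. The description of 24M AL male replicate 2 differs from its title, which was followed. The design text gives 67 mice, of which 65 were analysed here.

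Features were named through the platform annotation (4875 with 1 symbol, 224 with several, 3349 with none). Differences were tested with limma 3.58.1 in R 4.3.3 (lmFit and eBayes) on the deposited scores, with the means of 14 groups over all 65 arrays and both sexes weighted equally. Benjamini-Hochberg adjustment was over 8448 features, the threshold was 0.05, and 51 residual degrees of freedom remained. The fit was tested on simulated data. Exact permutation tests exchanged labels within each sex. Alternatives were the run as covariate, leaving out arrays 31 to 33, the array of doubtful description or each mouse in turn, centring on 22 repeating positions or on 100 neighbouring features, quantile normalization, array weights, rounds of array numbers as a block, sex left out, a filter on the mean, another prior and the study's selection (its closing ANOVA was not run). The permutation tests, the within-run values, the neighbour centring and the position centring with run covariate were chosen after seeing the data.

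The members and lists were chosen with earlier results of these data known. Every Wrn, Terf1 and Tnks feature is named. From the telomere and partner lists the text names features past the threshold, otherwise the 3 with the smallest p from 16M to 24M AL and for CR against AL at 24M, and, wherever measured, Tnks2, Tnks1bp1, Terf2, Terf2ip, Tinf2, Ptges3, Parp1, Fen1, Xrcc5, Xrcc6 and Blm. Likeness names the 3 single-symbol features of highest Pearson r over all mice and over 62 mice centred on the runs. Wrnip1 was named after its values were seen.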

Additional observations from a re-analysis of the deposited data

Results flagged for a closer look

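In 36 sets of 4 or 5 mice (3 genes in 12 groups of age, diet and sex), 7 values lay far from the rest of their group by Dixon's criterion, where chance gives about 5% of sets. Arrays 32 and 33 gave 5 of them. On array 33, 6M AL male replicate 3, Wrn was -0.09 with the nearest mouse at 0.22, Terf1 was 2.40 with the nearest at 1.46, and Tnks was -1.15 with the nearest at -0.69. On array 32, 6M CR female replicate 3, Wrn was -0.18 with the nearest at 0.19, and Tnks was -1.28 with the nearest at -0.78. In 16M CR males, Wrn was -0.12 in replicate 5 (array 61), with the nearest at 0.18. In 16M AL males, Wrn was 0.25 in replicate 1 (array 9), with the nearest at 0.31.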

How the results depend on the processing

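The direction of Wrn from 16M to 24M in AL mice was the same under all 13 alternatives run (-0.187 to -0.138). Several of these could not move the difference, as the groups compared are balanced and hold none of arrays 31 to 33. Leaving out those arrays, rounds as a block, sex left out, the filter on the mean, the other prior and the study's selection all gave -0.184. With each mouse left out the Wrn difference ran from -0.199 to -0.148. The Wrn difference passed the adjusted threshold only with array weights (-0.170, adjusted p = 0.0393), whose estimation stopped before it converged. Over the other fits its adjusted p lay between 0.186 and 1.00. Array weights also put the 6M to 24M AL differences of Wrn (-0.141, against -0.117 in the report) and Tnks (-0.0835, against -0.0320 with an adjusted p of 0.795 in the unweighted fit and -0.0808 without arrays 31 to 33) past the threshold. In that comparison 3 of 14 telomere and 8 of 20 partner features passed with array weights, against 0 in the report. The same fit called 1829 of all 8448 features there. The study's selection took Wrn from 16M to 24M AL (-0.184) and for CR against AL at 16M (-0.102), and 1 partner from 6M to 24M AL (Rpa2), 1 telomere gene (Ptges3) and 1 partner (Xrcc6) for CR against AL at 24M, with the shares over all features given in the report. Tnks has a mean below 0 and could not enter that selection or the filter on the mean. The number of features past the threshold moved from 11 to between 8 and 24 (juvenile to 6M AL), from 2 to between 0 and 7 (6M to 16M AL), from 6 to between 0 and 7 (6M to 24M AL, 1829 with array weights), from 0 to 42 with array weights (16M to 24M AL), from 2 to between 0 and 4 (6M to 24M CR), from 2 to between 0 and 2 (CR against AL at 6M and over all ages) and from 0 to 1 (males against females). No paired analysis was possible because the labels give no replicate numbers, and a block on the 5 rounds in which array numbers pass through the groups was run in its place (Wrn from 16M to 24M AL -0.184, adjusted p = 0.865). The scores carry no depth or background, so the number of mice sets the limit.

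Under the alternatives 52 differences of the 3 genes changed sign, none of them past the threshold in either fit, and the cause was not tested. With the run as covariate and without arrays 31 to 33, changed signs gave Wrn 0.0276 (juvenile to 6M AL), -0.0181 (6M to 16M CR) and -0.0104 (6M to 24M CR). Terf1 gave -0.0667 (juvenile to 6M AL), 0.0257 (6M to 16M AL), 0.0347 (6M to 16M CR) and -0.0259 (males against females). Tnks gave -0.0176 (CR against AL over all ages) and -0.0103 (males against females). With array weights, changed signs gave Wrn 0.0277 (juvenile to 6M AL) and -0.0226 (6M to 16M CR). Terf1 gave -0.0392 (juvenile to 6M AL), 0.0197 (6M to 16M AL), 0.0133 (6M to 16M CR) and -0.0184 (males against females). Tnks gave 0.00987 (juvenile to 6M AL) and -0.0141 (CR against AL over all ages). With position centring, changed signs gave Wrn -0.0193 (6M to 16M CR), 0.00283 (CR against AL at 6M), 0.00336 (CR against AL over all ages) and 0.0139 (males against females). Tnks gave -0.0136 (16M to 24M CR) and -0.0153 (CR against AL over all ages). With position centring and the run together, without arrays 31 to 33, changed signs gave Wrn 0.0326 (juvenile to 6M AL), -0.0131 (6M to 16M CR) and 0.0115 (males against females). Terf1 gave -0.0916 (juvenile to 6M AL), 0.0196 (6M to 16M AL), 0.0137 (6M to 16M CR) and -0.0188 (males against females). Tnks gave -0.0364 (CR against AL over all ages) and -0.0170 (males against females). With quantile normalization, changed signs gave Wrn 0.00578 (juvenile to 6M AL). Terf1 gave -0.0207 (the sex difference of the 16M to 24M step). With rounds as a block, changed signs gave Wrn -0.00670 (16M to 24M CR). With sex not modelled, changed signs gave Tnks -0.00571 (CR against AL over all ages). Without arrays 31 to 33 alone, changed signs gave Wrn 0.0330 (juvenile to 6M AL), -0.0235 (6M to 16M CR) and -0.0179 (6M to 24M CR). Terf1 gave -0.0525 (juvenile to 6M AL), 0.0115 (6M to 16M AL), 0.0205 (6M to 16M CR) and -0.0214 (males against females). Tnks gave 0.0138 (juvenile to 6M AL), -0.000750 (6M to 16M AL), -0.00819 (CR against AL over all ages) and -0.00336 (males against females). With neighbour centring, changed signs gave Wrn 0.0499 (juvenile to 6M AL) and -0.00638 (6M to 16M AL). Terf1 gave 0.00848 (16M to 24M AL). Tnks gave -0.0101 (CR against AL over all ages) and 0.0223 (the sex difference of the 16M to 24M step). With 1 mouse left out, 48 differences changed sign, in these ranges. Wrn ran from -0.0289 to 0.0310 (16M to 24M CR), from -0.00517 to 0.0698 (6M to 16M CR), from -0.0182 to 0.0330 (juvenile to 6M AL), from -0.0213 to 0.00392 (males against females) and from -0.0485 to 0.0540 (the sex difference of the 16M to 24M step). Terf1 ran from -0.121 to 0.0115 (6M to 16M AL), from -0.0820 to 0.0675 (CR against AL at 6M), from -0.0525 to 0.0800 (juvenile to 6M AL), from -0.0206 to 0.0284 (males against females) and from -0.0315 to 0.0605 (the sex difference of the 16M to 24M step). Tnks ran from -0.000750 to 0.0693 (6M to 16M AL), from -0.0911 to 0.0132 (CR against AL at 6M), from -0.0145 to 0.0203 (CR against AL over all ages), from -0.0563 to 0.0138 (juvenile to 6M AL), from -0.00739 to 0.0274 (males against females) and from -0.0480 to 0.00500 (the sex difference of the 16M to 24M step).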
